A study of Mus musculus with 21 samples.

Results

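The aryl hydrocarbon receptor, encoded by Ahr, its dimerization partner Arnt, its repressor Ahrr and 7 genes reported as its targets (Tiparp, Cyp1a1, Cyp1a2, Cyp1b1, Aldh3a1, Ptgs2 and Cyp2s1) were taken by symbol from a deposited expression table of 20900 genes. All 10 symbols were found, and all 10 passed the filter that left 14666 genes for testing. The genes were chosen because earlier results of these libraries showed several of them high with BMH-21 and not with CX-5461. Their own values are therefore given as a description, without tests.

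The libraries were poly(A) RNA-seq of E14 cells, a mouse embryonic stem cell line of the 129 strain kept in medium with serum and leukaemia inhibitory factor. Cells received medium with 1 µM BMH-21 or 1 µM CX-5461, which are small molecules that inhibit RNA polymerase I, and were collected at 2, 4 or 8 h. A 0 h group was the control for both inhibitors. Each of the 7 groups had 3 replicates, 21 libraries in all, from 1 cell line. Because treated cells also received fresh medium and the control was taken at 0 h, inhibitor and time in fresh medium cannot be told apart in a comparison with control; BMH-21 and CX-5461 at the same hour share that time.

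The receptor is a transcription factor of the bHLH-PAS family that rests in the cytoplasm with heat shock protein chaperones and, when a planar aromatic ligand such as dioxin binds, moves to the nucleus and pairs with ARNT. The pair binds DNA elements with the core GCGTG and raises transcription of the Cyp1 genes, whose enzymes oxidise many of the same ligands. Ahrr and Tiparp are targets too, and their products dampen the receptor: AHRR competes for ARNT and DNA, and TIPARP attaches ADP-ribose to the receptor. This battery is best known in liver and barrier tissues.

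Values are the deposited log2 values unless another scale is named. A log2 value of 0 corresponded to between 41.6 and 85.9 reads, depending on the library, out of 46604397 to 62812641 reads per library. The library scaling in the deposited values moved the median of all genes against control by -0.07, -0.21 and -0.40 with BMH-21 at 2, 4 and 8 h, and by -0.18, -0.28 and 0.11 with CX-5461. At 8 h the median of BMH-21 minus CX-5461 was -0.48. Differences are therefore also given, where it matters, after centring each library on its median or with median-ratio size factors. The summed level of 6 stem cell markers (Pou5f1, Nanog, Sox2, Zfp42, Esrrb and Klf4) was 4073 to 4625 RPM (the deposited log2 values taken back to the linear scale, with the deposited library scaling) in the control, 3171 to 3524 with BMH-21 at 2 h and 1542 to 1724 at 8 h. Hepatocyte markers summed to 7.50 to 9.08 RPM in the control and to 7.09 to 8.03 with BMH-21 at 2 h, with 2 of 5 above the filter. Most of that sum was Cyp2e1, at 2.97 in the control and 2.72 at 2 h of BMH-21. Fibroblast markers summed to 30.5 to 34.8 and 29.9 to 36.6, with 3 of 6 above the filter, so neither list stood apart from control at 2 h. Both sums were above the control range at 4 h of BMH-21 (9.92 to 11.0 and 43.5 to 53.3 RPM), at 8 h of BMH-21 (10.1 to 11.6 and 38.8 to 46.5) and at 8 h of CX-5461 (9.17 to 10.6 and 43.0 to 44.2). Their members went different ways with BMH-21. Col1a1 went from 3.15 in the control to 4.97 and 5.01 at 4 and 8 h. Thy1 went from 4.48 to 3.81 and 3.07, and Dcn from -1.83 to -2.84 and -3.66. Cyp2e1 was at 2.96 and 2.97 at these hours. Alb went from 0 to 2 control reads to 38 to 44 and 46 to 90, and Apoa1 from 1 to 13 to 55 to 61 and 83 to 166. With CX-5461 the stem cell sums were 2900 to 3466, 2225 to 2663 and 3188 to 3459 RPM in order of time. Endoderm markers, 4 of 5 above the filter, summed to 8.52 to 10.2 in the control, 7.90 to 9.28 at 8 h of BMH-21 and 11.6 to 12.1 at 8 h of CX-5461. The part of these markers in the later values of the 10 genes was not tested.

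Cyp1a1 and Cyp1b1, which encode the inducible monooxygenases of the Cyp1 family, were near the bottom of the expressed range in untreated cells and far above it after 2 h of BMH-21. Ahrr was highest at the same time, and so was Tiparp as deposited, although with quantile normalization Tiparp was higher at 8 h. These 4 genes were lower at 4 h than at 2 h, and by 8 h Ahrr was much nearer its starting level than Cyp1a1 and Cyp1b1 were to theirs. With CX-5461, Cyp1a1 libraries overlapped the control at each time, but those of Cyp1b1 did not, and Tiparp was below control at 2 and 4 h. Aldh3a1 and Ptgs2 were above the control, and Arnt and Cyp2s1 below it, at 4 h with both inhibitors, so a description of the 10 genes as present with BMH-21 and absent with CX-5461 holds for a subset only.

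**Figure D1:**
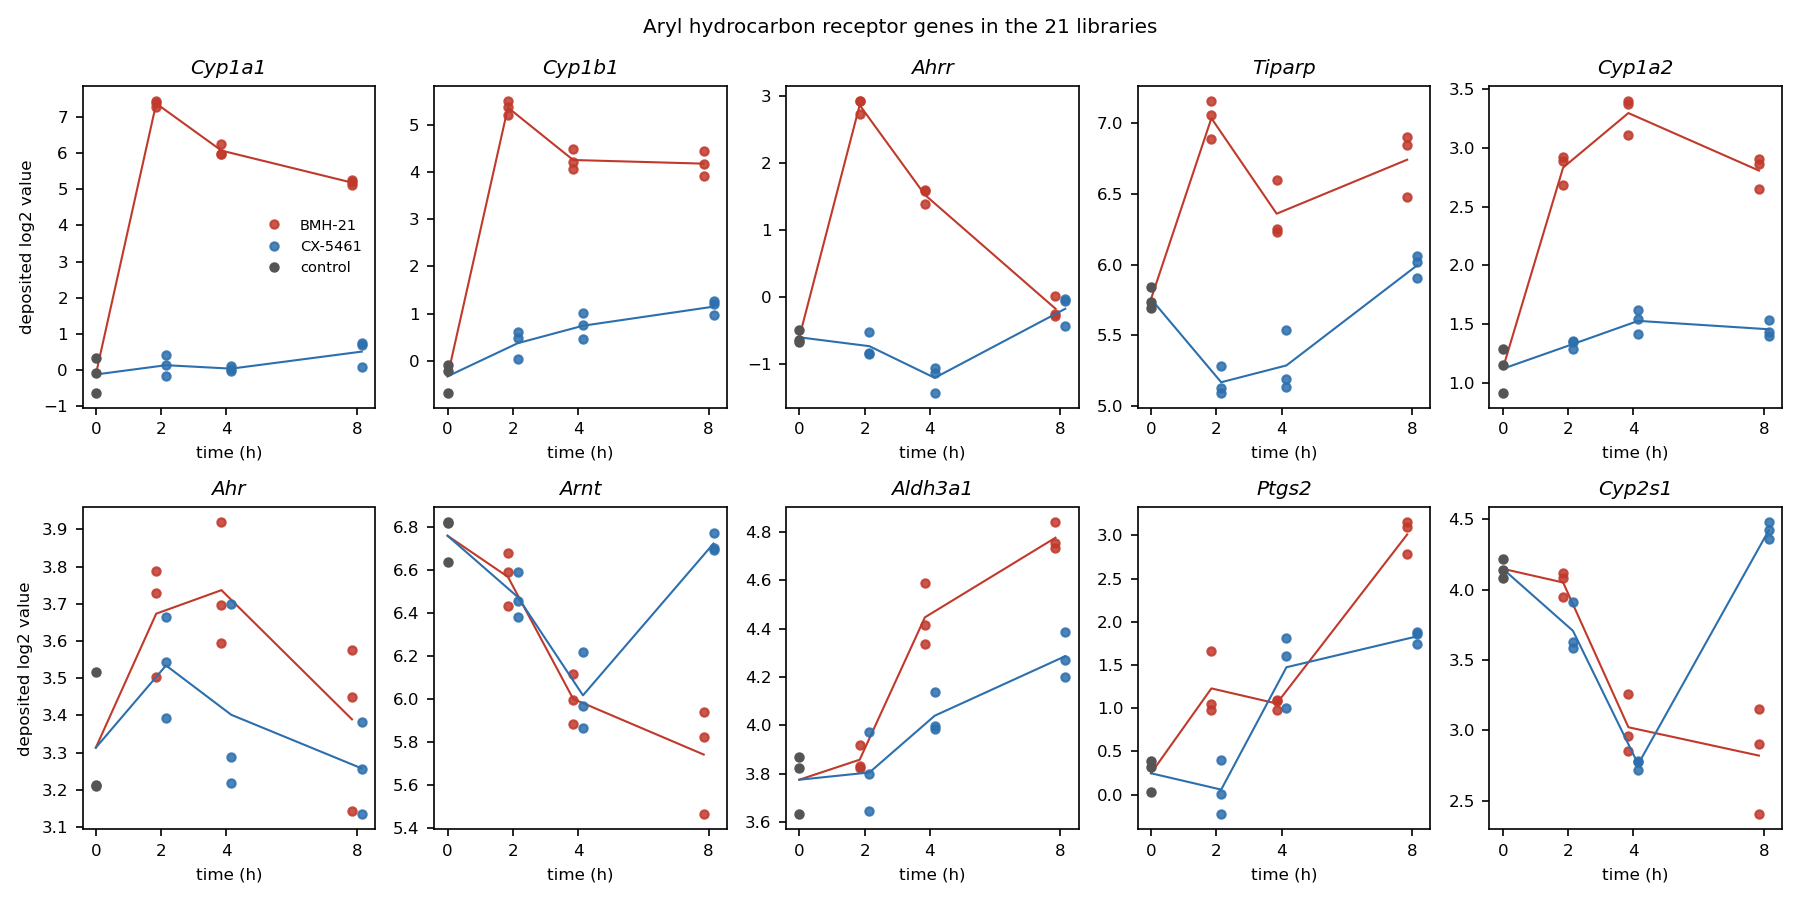
Deposited log2 value (vertical axis) against hours of treatment (horizontal axis) for the 10 genes, 1 panel per gene. Points are single libraries, 3 per group, and lines join the group means of BMH-21 and of CX-5461 from the shared 0 h control; the inhibitors are drawn slightly apart in time, and each panel has its own scale. Cyp1a1 stood at 7.29 to 7.45 after 2 h of BMH-21, while the CX-5461 libraries at all 3 times stayed between -0.17 and 0.75.

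The receptor core was searched for in the region from 250 bases before to 50 bases after each start site, using RefSeq promoters on GRCm38.p6. Of the 10 genes 8 had an entry; Ahr and Aldh3a1 had none. GCGTG on either strand was present in 6 of the 8, against 32.4% of 32851 promoters of the same length. The longer form TNGCGTG was present in 2 of the 8, Ahrr and Ptgs2, against 5.07%. Base composition matters to such a short motif: among promoters with at least 60% G and C, 59.2% held GCGTG, beside 2 of the 3 genes here with such a promoter. Arnt, Cyp1b1 and Ptgs2, each with a copy, were just under that limit, at 58.3% to 59.3%. Cyp1a2 and Cyp2s1 held no copy in this window. The promoters of the 4 genes with a copy that differed most between the inhibitors at 2 h are printed 5′ to 3′ on the strand of the gene, with GCGTG, or CACGC where the copy lies on the other strand, in capitals.
Cyp1a1, chr9:57697363-57697662, plus strand: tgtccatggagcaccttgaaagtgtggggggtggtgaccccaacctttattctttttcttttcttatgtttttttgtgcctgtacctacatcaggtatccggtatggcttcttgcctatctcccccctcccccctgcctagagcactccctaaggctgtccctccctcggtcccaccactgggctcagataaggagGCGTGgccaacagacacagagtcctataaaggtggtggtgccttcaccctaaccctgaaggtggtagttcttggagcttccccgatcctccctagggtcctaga
Cyp1b1, chr17:79715012-79715311, minus strand: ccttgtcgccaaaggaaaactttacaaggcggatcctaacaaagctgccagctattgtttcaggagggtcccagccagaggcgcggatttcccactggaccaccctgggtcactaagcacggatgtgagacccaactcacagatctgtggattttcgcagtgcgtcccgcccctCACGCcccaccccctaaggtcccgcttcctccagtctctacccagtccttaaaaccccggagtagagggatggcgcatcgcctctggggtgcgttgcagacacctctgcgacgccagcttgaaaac
Ahrr, chr13:74292282-74292581, minus strand: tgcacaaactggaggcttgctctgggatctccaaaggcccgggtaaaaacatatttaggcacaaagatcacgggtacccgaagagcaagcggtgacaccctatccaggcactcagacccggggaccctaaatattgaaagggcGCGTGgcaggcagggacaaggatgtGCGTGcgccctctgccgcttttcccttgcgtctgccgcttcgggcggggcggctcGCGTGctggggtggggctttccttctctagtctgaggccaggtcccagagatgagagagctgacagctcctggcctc
Tiparp, chr3:65528197-65528496, plus strand: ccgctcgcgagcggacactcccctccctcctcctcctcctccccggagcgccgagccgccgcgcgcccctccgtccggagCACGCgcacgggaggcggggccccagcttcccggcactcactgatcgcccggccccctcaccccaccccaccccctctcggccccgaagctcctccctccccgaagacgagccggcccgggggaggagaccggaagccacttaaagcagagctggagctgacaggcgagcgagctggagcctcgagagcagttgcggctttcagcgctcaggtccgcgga

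Ahrr carried 3 copies, whose first bases lay 107, 82 and 27 bases before the start site, and the last of them was part of TNGCGTG. The single copy of Cyp1a1 began 54 bases before the start. That start is the RefSeq one: the searched window, chr9:57697363-57697662, lies inside the GENCODE span of the gene, chr9:57687928-57703824. The region at the GENCODE start of Cyp1a1 was not searched. Cyp1b1 and Tiparp each had 1 copy on the opposite strand, 76 and 170 bases before the start. The last bases of the printed sequence were found in a transcript of the gene for Cyp1a1, Cyp1b1 and Ahrr. For Tiparp they were found in neither direction, so its start and strand rest on the annotation. A match here describes letters, not binding, and enhancers farther away were not searched.

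Cyp1a1 (GENCODE M21 on GRCm38, chr9:57687928-57703824, plus strand) measured -0.07, 0.34 and -0.64 in the 3 control libraries, from 30 to 57 reads. After 2 h of BMH-21 the values were 7.29, 7.45 and 7.38, from 7383 to 8456 reads. At 4 h they were 6.25, 5.98 and 5.99, and at 8 h 5.19, 5.11 and 5.25. The 3 BMH-21 groups overlapped neither the control nor each other, and their order was that of the hours, from high to low. The mean difference from control was 7.50 at 2 h, a 181-fold higher level, then 6.19 (73.2-fold) and 5.31 (39.6-fold).

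With CX-5461 the Cyp1a1 libraries read 0.42, -0.17 and 0.15 at 2 h, -0.03, 0.11 and 0.04 at 4 h, and 0.70, 0.75 and 0.07 at 8 h, on 45 to 87 reads. Each of these groups overlapped the control, and their means differed from it by 0.26, 0.16 and 0.63, against a control SD of 0.49. Cyp1a1 was thus the gene with the greatest positive difference between BMH-21 and CX-5461 among the 14666 tested, at 7.24, 6.03 and 4.68 at 2, 4 and 8 h.

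Cyp1b1 (chr17:79701537-79715061, minus strand) encodes a related enzyme that also oxidises oestrogens and polycyclic hydrocarbons. Its control values were -0.21, -0.10 and -0.68, from 29 to 42 reads. With BMH-21 they were 5.20, 5.51 and 5.39 at 2 h, 4.50, 4.20 and 4.06 at 4 h, and 4.17, 3.92 and 4.44 at 8 h. The 4 and 8 h libraries overlapped each other and lay below those at 2 h. The differences from control were 5.70 (51.8-fold), 4.58 (24.0-fold) and 4.51 (22.7-fold).

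Unlike Cyp1a1, Cyp1b1 was also above the control in every CX-5461 library. The values were 0.47, 0.04 and 0.60 at 2 h, 0.76, 1.01 and 0.45 at 4 h, and 1.21, 1.26 and 0.97 at 8 h, from 58 to 124 reads. The mean differences of 0.70, 1.07 and 1.48 remained positive after centring, at 0.85, 1.23 and 1.26. They correspond to 1.63-fold, 2.10-fold and 2.78-fold, well under the folds seen with BMH-21.

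Cyp1a2 (chr9:57676937-57683703, minus strand), the family member that dominates in liver and lies beside Cyp1a1 on chromosome 9, followed another course. Control values were 1.16, 1.29 and 0.92. BMH-21 gave 2.68, 2.89 and 2.92 at 2 h, 3.40, 3.11 and 3.37 at 4 h, and 2.86, 2.65 and 2.91 at 8 h, from 303 to 573 reads in all. The level was highest at 4 h rather than at 2 h, and the 2 h and 8 h libraries overlapped. Differences from control were 1.71, 2.17 and 1.68, or 3.27-fold, 4.50-fold and 3.21-fold.

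CX-5461 put Cyp1a2 at 1.33 ± 0.04, 1.53 ± 0.10 and 1.46 ± 0.07 (SD, n = 3) at 2, 4 and 8 h, against 1.12 ± 0.19 in the control. The 2 h libraries overlapped the control as deposited, but median-ratio factors (0.39) or centring (0.36) put them wholly above it. The later ones lay above it by 0.41 and 0.34. The 8 h difference was -0.29 under quantile normalization, so its direction depends on the scaling.

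Ratios within a library do not depend on its scaling. Per kilobase of exon, Cyp1a1 stood at 0.309 ± 0.063 of Cyp1a2 in the control (SD, n = 3) and at 16.8 ± 0.88 times it after 2 h of BMH-21. The ratio was 4.97 ± 0.48 at 4 h and 3.76 ± 0.19 at 8 h. With CX-5461 it was 0.319, 0.258 and 0.381, with libraries from 0.229 to 0.450. The ratio of Cyp1a1 to Cyp1b1 was 2.43 ± 0.35 in the control, 8.44 ± 0.44 after 2 h of BMH-21 and 4.24 ± 0.55 at 8 h. In the CX-5461 libraries it was 1.79, 1.30 and 1.36, below the control, whose ratio rests on 29 to 57 reads a gene.

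The part of the 2 h excess over control that remained was computed on the linear scale of the group means. Cyp1a1 retained 40.3% at 4 h and 21.5% at 8 h. Cyp1b1 retained 45.4% and then 43.1%. Cyp1a2 was at 155% and 97.5%. These shares hold for the deposited scaling. With median-ratio factors the Cyp1b1 difference from control was 4.77 at 4 h and 4.86 at 8 h, the reverse order. Centring and quantile normalization kept the deposited order. The Cyp1a2 difference was higher at 8 h than at 2 h with median-ratio factors (2.04 against 1.79) and centring (1.89 against 1.78). After quantile normalization it was lower at 8 h, as deposited. The 3 Cyp1 genes were thus all high at 2 h of BMH-21, and their later courses were unlike.

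**Figure D2:**
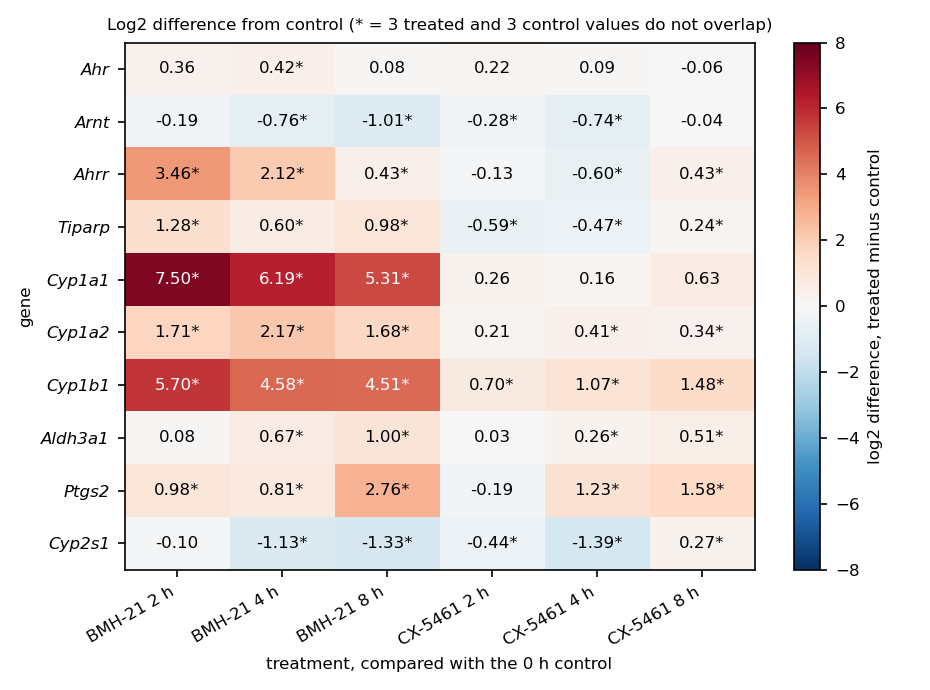
Log2 difference from the 0 h control (colour and printed value) for the 10 genes (rows) in the 6 treated groups (columns). An asterisk marks a group whose 3 values do not overlap the 3 control values. Cyp1a1 and Cyp1b1 head the BMH-21 columns at 7.50 and 5.70, and Arnt and Cyp2s1 are negative at 4 h with both inhibitors.

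Ahrr (chr13:74211118-74292331, minus strand), whose product represses the receptor, was at -0.48, -0.67 and -0.64 in the control, on 28 to 33 reads. The BMH-21 libraries held 314 to 368 reads at 2 h (2.73, 2.93 and 2.93) and 142 to 171 reads at 4 h (1.60, 1.58 and 1.40). At 8 h they read -0.28, -0.25 and 0.02, near the control but still above each of its libraries. The differences were 3.46 (11.0-fold), 2.12 (4.36-fold) and 0.43, and 33.5% and 3.47% of the 2 h excess remained at 4 and 8 h. The 8 h difference depended on the scaling: it was 0.64 after centring and 0.78 with median-ratio factors, both without overlap, and -0.17 after quantile normalization, so the share that remained at 8 h holds for the deposited scaling alone.

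In the CX-5461 libraries Ahrr was at -0.73 ± 0.19 at 2 h, overlapping the control. The 4 h libraries, at -1.43, -1.12 and -1.06, were below every control library by a mean difference of -0.60, on 21 to 26 reads. At 8 h the mean was -0.17 ± 0.23, equal to that with BMH-21 on the deposited scaling, and its difference from control of 0.43 was 0.21 after centring, with overlap, and -0.66 under quantile normalization. The difference between the inhibitors was 3.60 at 2 h and 2.73 at 4 h, the third highest among all genes tested at both times. At 8 h it was 0.00 as deposited, but 0.43 after centring and 0.47 with median-ratio factors, with BMH-21 wholly higher in both, and 0.49 after quantile normalization.

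Tiparp (chr3:65528410-65555518, plus strand) was the most abundant target in the control, at 5.84, 5.73 and 5.70. BMH-21 libraries measured 6.89, 7.16 and 7.06 at 2 h, 6.60, 6.25 and 6.23 at 4 h, and 6.84, 6.48 and 6.90 at 8 h. All 9 were above the control, and the 8 h group overlapped both earlier ones. The differences were 1.28 (2.42-fold), 0.60 (1.52-fold) and 0.98 (1.98-fold), so the level at 4 h was the lowest of the 3, with 36.9% of the 2 h excess remaining there and 69.5% at 8 h. At 8 h the difference was 1.20 after centring, 1.34 with median-ratio factors and 1.43 after quantile normalization, against 1.35, 1.36 and 1.29 at 2 h, so the order of 2 and 8 h and the share remaining at 8 h depended on the scaling.

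CX-5461 had the opposite sign for Tiparp at the early times. Its libraries read 5.28, 5.13 and 5.09 at 2 h and 5.13, 5.54 and 5.19 at 4 h, all below the control, with differences of -0.59 and -0.47. At 8 h they read 6.06, 5.91 and 6.02, above the control by 0.24, which shrank to 0.02 after centring. Between the inhibitors Tiparp differed by 1.86 at 2 h, rank 5 among the genes tested, by 1.07 at 4 h and by 0.75 at 8 h. Tiparp exons overlap those of a pseudogene on the other strand, and whether counting used strand is not given in the sources used here. Reads of the pair cannot be told apart.

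Ahr (chr12:35497974-35535038, minus strand), the receptor gene, had small differences next to those of its targets. The control libraries measured 3.21, 3.52 and 3.21, from 434 to 520 reads. BMH-21 libraries were at 3.50, 3.73 and 3.79 at 2 h, 3.92, 3.70 and 3.60 at 4 h, and 3.45, 3.14 and 3.58 at 8 h. Only the 4 h group lay wholly above the control, by 0.42. The CX-5461 means of 3.53 ± 0.14, 3.40 ± 0.26 and 3.26 ± 0.12 each came from libraries that overlapped it. With median-ratio factors the BMH-21 differences were 0.44, 0.61 and 0.43 and the CX-5461 differences 0.40, 0.34 and -0.17, and the first 5 of these 6 groups then lay wholly above the control. Ahr exons overlap those of a noncoding gene on the other strand.

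Arnt (chr3:95434388-95497240, plus strand), which is shared with the hypoxia pathway, was at 6.82, 6.82 and 6.64 in the control. BMH-21 libraries read 6.43, 6.68 and 6.59 at 2 h, 6.12, 6.00 and 5.89 at 4 h, and 5.94, 5.46 and 5.82 at 8 h. The later groups were below the control, by -0.76 and -1.01 on average. CX-5461 gave means of 6.47 ± 0.10 at 2 h, 6.02 ± 0.18 at 4 h and 6.72 ± 0.04 at 8 h. It was below the control by -0.28 at 2 h, at nearly the same level as with BMH-21 at 4 h and back in the control range at 8 h as deposited, where the inhibitors differed by -0.98. The median-ratio differences had the same signs, -0.66 for BMH-21 and -0.15 for CX-5461 at 8 h, and the CX-5461 libraries then lay wholly below the control, as they did after centring (-0.25).

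Per kilobase of exon, control cells held Arnt at 13.5 and Ahr at 1.62 RPKM (RPM per kilobase). The ratio of Ahr to Arnt was 0.120 ± 0.013 in the control, 0.175 ± 0.0096 at 2 h, 0.271 ± 0.011 at 4 h and 0.255 ± 0.022 at 8 h of BMH-21. CX-5461 gave 0.169 ± 0.0048, 0.212 ± 0.017 and 0.118 ± 0.0076. The ratio was therefore above every control library with both inhibitors at 2 and 4 h, and in the control range with CX-5461 at 8 h. For the repressor, the ratio of Ahrr to Ahr was 0.0438 ± 0.0074 in the control and 0.373 ± 0.011 after 2 h of BMH-21, then 0.141 and 0.0556. CX-5461 values were 0.0340, 0.0272 and 0.0608.

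Aldh3a1 (chr11:61207537-61218421, plus strand), an aldehyde dehydrogenase of the same inducible battery in liver, differed little from the control at 2 h. Control values were 3.83, 3.87 and 3.63, and the 2 h libraries of BMH-21 (3.82, 3.92 and 3.83) and CX-5461 (3.97, 3.65 and 3.80) overlapped them as deposited. After centring both 2 h groups lay wholly above the control, by 0.16 and 0.18, and with median-ratio factors by 0.17 and 0.21. BMH-21 reached 4.45 ± 0.13 at 4 h and 4.78 ± 0.06 at 8 h, and CX-5461 4.04 ± 0.09 and 4.29 ± 0.09. The differences of 0.67 and 1.00 with BMH-21 exceeded those of 0.26 and 0.51 with CX-5461, without overlap between the inhibitors. The highest level was at 8 h with BMH-21, and with CX-5461 as deposited. For CX-5461 the 8 h mean was above the 4 h mean by 0.25 as deposited. That difference was -0.13 after centring and -0.12 with median-ratio factors, both without overlap, and -0.14 after quantile normalization, so the order depended on the scaling.

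Ptgs2 (chr1:150100031-150108227, plus strand), which encodes the inducible cyclooxygenase, started at 0.32, 0.39 and 0.03 on 48 to 59 reads. With BMH-21 it measured 0.98, 1.04 and 1.66 at 2 h, 0.98, 1.09 and 1.10 at 4 h, and 3.10, 2.78 and 3.15 at 8 h. The 8 h level was 6.79-fold above the control and stood apart from the earlier ones. CX-5461 libraries overlapped the control at 2 h and measured 1.01, 1.81 and 1.60 at 4 h and 1.88, 1.75 and 1.86 at 8 h. At 4 h the CX-5461 mean was above the BMH-21 mean by 0.42 with overlapping libraries, and at 8 h BMH-21 was higher by 1.18.

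Cyp2s1 (chr7:25802475-25816913, minus strand), a cytochrome P450 reported as inducible by dioxin, was the target with the opposite sign. The control was at 4.09, 4.14 and 4.22. With BMH-21 the libraries read 3.95, 4.08 and 4.12 at 2 h, overlapping the control, 3.26, 2.85 and 2.96 at 4 h, and 3.15, 2.40 and 2.91 at 8 h. CX-5461 libraries read 3.91, 3.59 and 3.62 at 2 h, already below the control, 2.72, 2.77 and 2.78 at 4 h, and 4.42, 4.36 and 4.48 at 8 h. Both inhibitors therefore had the gene below control at 4 h, by -1.13 and -1.39, and at 8 h they differed by -1.60. The CX-5461 difference of 0.27 at 8 h was 0.06 after centring, with overlapping libraries. Cyp2s1 exons overlap those of a noncoding gene on the other strand.

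Over the 10 genes, BMH-21 at 2 h had 6 wholly above the control and 0 wholly below, beside 11% and 19.5% of the 14666 genes tested. At 4 h there were 8 above and 2 below, beside 22.8% and 42%, and at 8 h 7 and 2, beside 24.1% and 57.1%. CX-5461 at 2 h had 1 above and 3 below, beside 8.71% and 29.5%. At 4 h it had 4 and 4, beside 20.8% and 47.6%, and at 8 h 7 and 0, beside 42.8% and 19.5%. After centring the CX-5461 counts at 2 h were 4 and 3 and at 8 h 3 and 2, and the BMH-21 count at 2 h was 8 and 1. Because the genes were chosen on these contrasts, nothing is read from the counts.

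The median difference of the 10 genes from control was 1.13, 0.74 and 0.99 with BMH-21, against -0.07, -0.21 and -0.40 for all genes tested. With CX-5461 it was -0.05, 0.12 and 0.38, against -0.18, -0.28 and 0.11. Between the inhibitors, 7, 7 and 6 of the 10 lay wholly higher with BMH-21 at 2, 4 and 8 h, beside 9.36%, 13.7% and 12.6% of all genes, and 0, 0 and 2 lay wholly lower, beside 4.36%, 11.3% and 69.7%. The 2 that were lower at 8 h were Arnt and Cyp2s1. At 2 h, Cyp1a1, Cyp1b1 and Ahrr took ranks 1, 2 and 3 of positive differences, Tiparp rank 5 and Cyp1a2 rank 15, while Ahr, Arnt and Aldh3a1 had overlapping libraries.

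**Figure D3:**
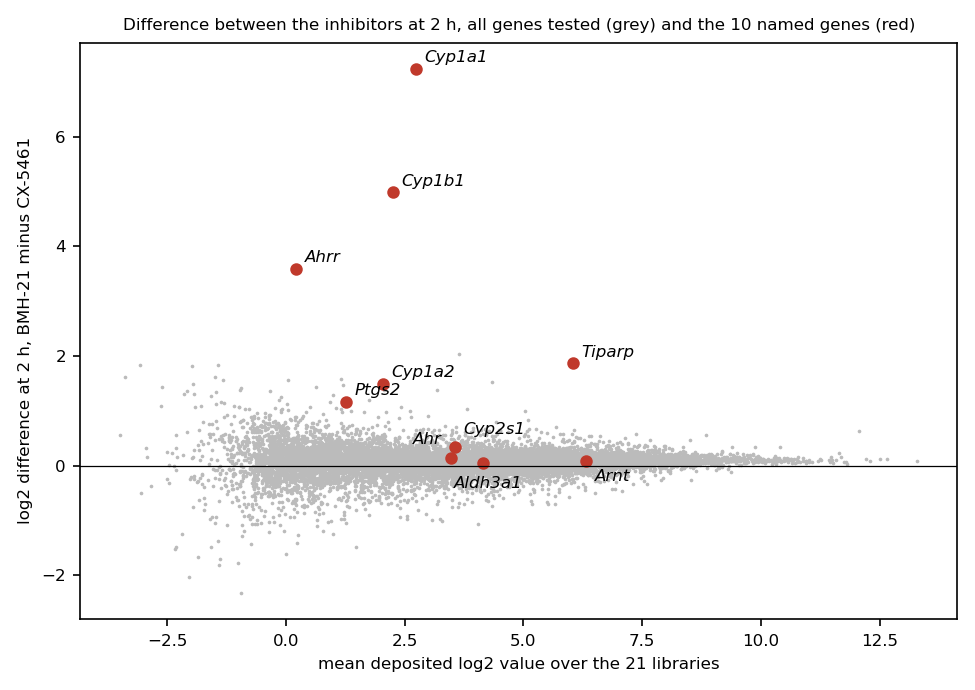
Difference between BMH-21 and CX-5461 at 2 h (log2, vertical axis) against the mean deposited log2 value over 21 libraries (horizontal axis), with 1 grey point per gene tested and the 10 genes in red with their names. Cyp1a1 at 7.24, Cyp1b1 at 4.99 and Ahrr at 3.60 lie above all other points, and Ahr, Arnt and Aldh3a1 lie inside the cloud.

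The wider pathway was followed in 6 lists of 77 other gene symbols, of which 75 were in the table. Of these, 50 were tested with limma, with Benjamini-Hochberg adjustment over all 14666 genes. With BMH-21 at 2 h, 10 of the 50 rose and 3 fell, 26% against 19.7% of all genes. At 4 h 17 rose and 16 fell, 66% against 67%. At 8 h 17 rose and 21 fell, 76% against 81.5%. CX-5461 at 2 h had 8 rises and 9 falls, 34% against 27.9%, at 4 h 17 and 20, 74% against 70.9%, and at 8 h 23 and 5, 56% against 49.4%. These shares were near the background in each case. After centring, the splits for BMH-21 were 15 and 3, 23 and 15, and 25 and 19, and for CX-5461 14 and 8, 21 and 18, and 18 and 18, so the balance of rises and falls depended on the scaling.

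In the list of chaperones and coregulators 14 of 14 genes were tested. At 2 h of BMH-21, Rb1, the retinoblastoma cell cycle gene, rose by 0.40 (SE 0.12, limma adjusted p = 0.0063) and Nrip1, a corepressor of nuclear receptors, fell by 1.01 (SE 0.15, adjusted p = 3.1e-08). The other 12 did not pass, and the 2 calls were 14.3% of the list, against 19.7% of all genes tested. Rb1 no longer passed without BMH-21 replicate 2 (adjusted p = 0.059). With CX-5461 at the same time 1 rose and 3 fell, 28.6% against 27.9% of all genes, among them Rb1 at 0.55 (adjusted p = 8.3e-05) and Nrip1 at -0.52 (adjusted p = 0.0064, and 0.055 without CX-5461 replicate 3). At 8 h of BMH-21, 4 rose and 8 fell, 85.7% against 81.5% of all genes. Rb1 was then higher by 3.23 (BMH-21) and 2.42 (CX-5461), and Ptges3, the p23 cochaperone of the resting receptor, lower by -1.39 and -0.57, all with adjusted p of 2.2e-06 or less.

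Among the bHLH-PAS relatives 12 of 14 symbols were in the table and 9 were tested. The symbols include Arntl with Bmal1 and Arntl2 with Bmal2, which are older and newer names of the same genes. At 2 h 1 rose and 1 fell with each inhibitor, 22.2% against 19.7% (BMH-21) and 27.9% (CX-5461) of all genes. Hif3a, a hypoxia-inducible factor subunit, fell by 0.47 with BMH-21 (adjusted p = 0.0072) and by 0.58 with CX-5461 (adjusted p = 0.00057), and by 1.52 with BMH-21 at 8 h (adjusted p = 1.2e-19). Without BMH-21 replicate 1 the first of these did not pass (adjusted p = 0.082). Npas3 rose by 1.44 and 1.23 at 2 h (adjusted p = 0.00016 and 0.0014) from 5 to 16 control reads. At 8 h of CX-5461 Clock, a circadian partner of the family, fell by 0.35 (adjusted p = 0.017), a call lost without control replicates 1 or 2 or CX-5461 replicate 1 (adjusted p up to 0.057). Mean Clock levels were lower at other times: 4.86 in the control and 4.66, 3.96 and 3.60 in the successive BMH-21 groups. The CX-5461 means were 4.61, 4.07 and 4.51, lowest at 4 h. Arnt2, the close relative of Arnt, rose by 0.37 at 4 h of BMH-21 (adjusted p = 0.0065), and its 2 h difference of 0.29 did not pass (adjusted p = 0.082) unless libraries were centred (0.37, adjusted p = 0.00093).

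Of 19 other genes reported as receptor targets, 11 were tested. At 2 h of BMH-21, 4 rose and 1 fell, 45.5% of those tested against 19.7% of all genes. The share called was 72.7% against 67% at 4 h and 63.6% against 81.5% at 8 h. Nqo1, a quinone reductase of this battery that NRF2 also drives, rose by 0.49 at 2 h, 0.86 at 4 h and 0.54 at 8 h (SE 0.11 at 2 h, limma adjusted p = 0.00023, 6.8e-12 and 4.6e-06). Its CX-5461 difference was -0.01 at 2 h (adjusted p = 0.93), 0.23 at 4 h (adjusted p = 0.051) and 0.57 at 8 h (adjusted p = 3.7e-06), and the 2 h value was 0.13 after centring and 0.17 with median-ratio factors, past the threshold in both. The 4 h value passed in 6 of 10 other settings, among them centring at 0.39 (adjusted p = 1.4e-07). Nfe2l2, which encodes NRF2, rose by 0.51 at 2 h of BMH-21 (adjusted p = 0.00015), against 0.06 with CX-5461 (adjusted p = 0.70).

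Other genes of that list moved with both inhibitors at 2 h. Nedd9, an adaptor protein gene, rose by 0.65 (BMH-21) and 0.81 (CX-5461) (adjusted p = 0.014 and 0.0014), and Cdkn1b, a cell cycle inhibitor, fell by 0.68 and 0.90 in the same order (adjusted p = 1.8e-06 and 3.9e-10). Slc46a3, a lysosomal transporter gene, fell by 1.31 at 8 h of BMH-21 (adjusted p = 4.8e-10). Its mean was 1.62 in the control and 0.06 at 4 h of BMH-21. The CX-5461 mean was also low at 4 h, at 0.47, and above the control at 8 h, at 2.11.

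For ligand metabolism 2 of 10 genes were tested, and neither passed at 2 h with BMH-21 or CX-5461. At 8 h Ddc, which encodes the decarboxylase of aromatic amino acids, fell by 0.51 with BMH-21 (adjusted p = 1.3e-05), and Afmid, of the kynurenine pathway, rose by 0.78 with CX-5461 (adjusted p = 7.8e-06). In the list of other xenobiotic and microsomal genes 6 of 10 were tested, and the drug exporters Abcb1a and Abcb1b rose with both inhibitors at 2 h. Abcb1a rose by 0.80 (BMH-21) and 0.40 (CX-5461) (adjusted p = 3.3e-09 and 0.0044). Abcb1b rose by 1.10 and 0.56 (adjusted p = 1.3e-15 and 2.3e-05), and by 2.56 and 1.75 at 8 h. Por, the reductase that supplies electrons to the P450 enzymes, had a difference of -0.11 at 2 h of BMH-21 (adjusted p = 0.57) and fell by 0.52 at 8 h (adjusted p = 7e-06).

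Relatives of the 10 genes by family included 8 tested of 10. Parp10, an ADP-ribosyltransferase like Tiparp, rose with both inhibitors, by 1.37 and 1.69 at 2 h (adjusted p = 9.5e-22 and 2.2e-28). Parp14, of the same family, fell by 2.17 at 8 h of BMH-21 and by 0.33 at 8 h of CX-5461 (adjusted p = 3e-35 and 0.016). Its difference at 2 h of CX-5461 was -0.45 (limma adjusted p = 0.0028). Mean Parp14 levels were 4.80 in the control and 4.53, 3.51 and 2.63 in the successive BMH-21 groups. The CX-5461 means were 4.36, 3.10 and 4.47, so at 4 h the gene was lower with CX-5461 than with BMH-21. Cyp2f2, a P450 of the same family as Cyp2s1, was at 4 to 7 reads in the control and at 454 to 580 at 8 h of BMH-21, and CX-5461 at that hour gave 112 to 131. The Parp14 call at 8 h of CX-5461 was lost without control replicate 1 or CX-5461 replicate 3 (adjusted p = 0.12 and 0.089).

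**Figure D4:**
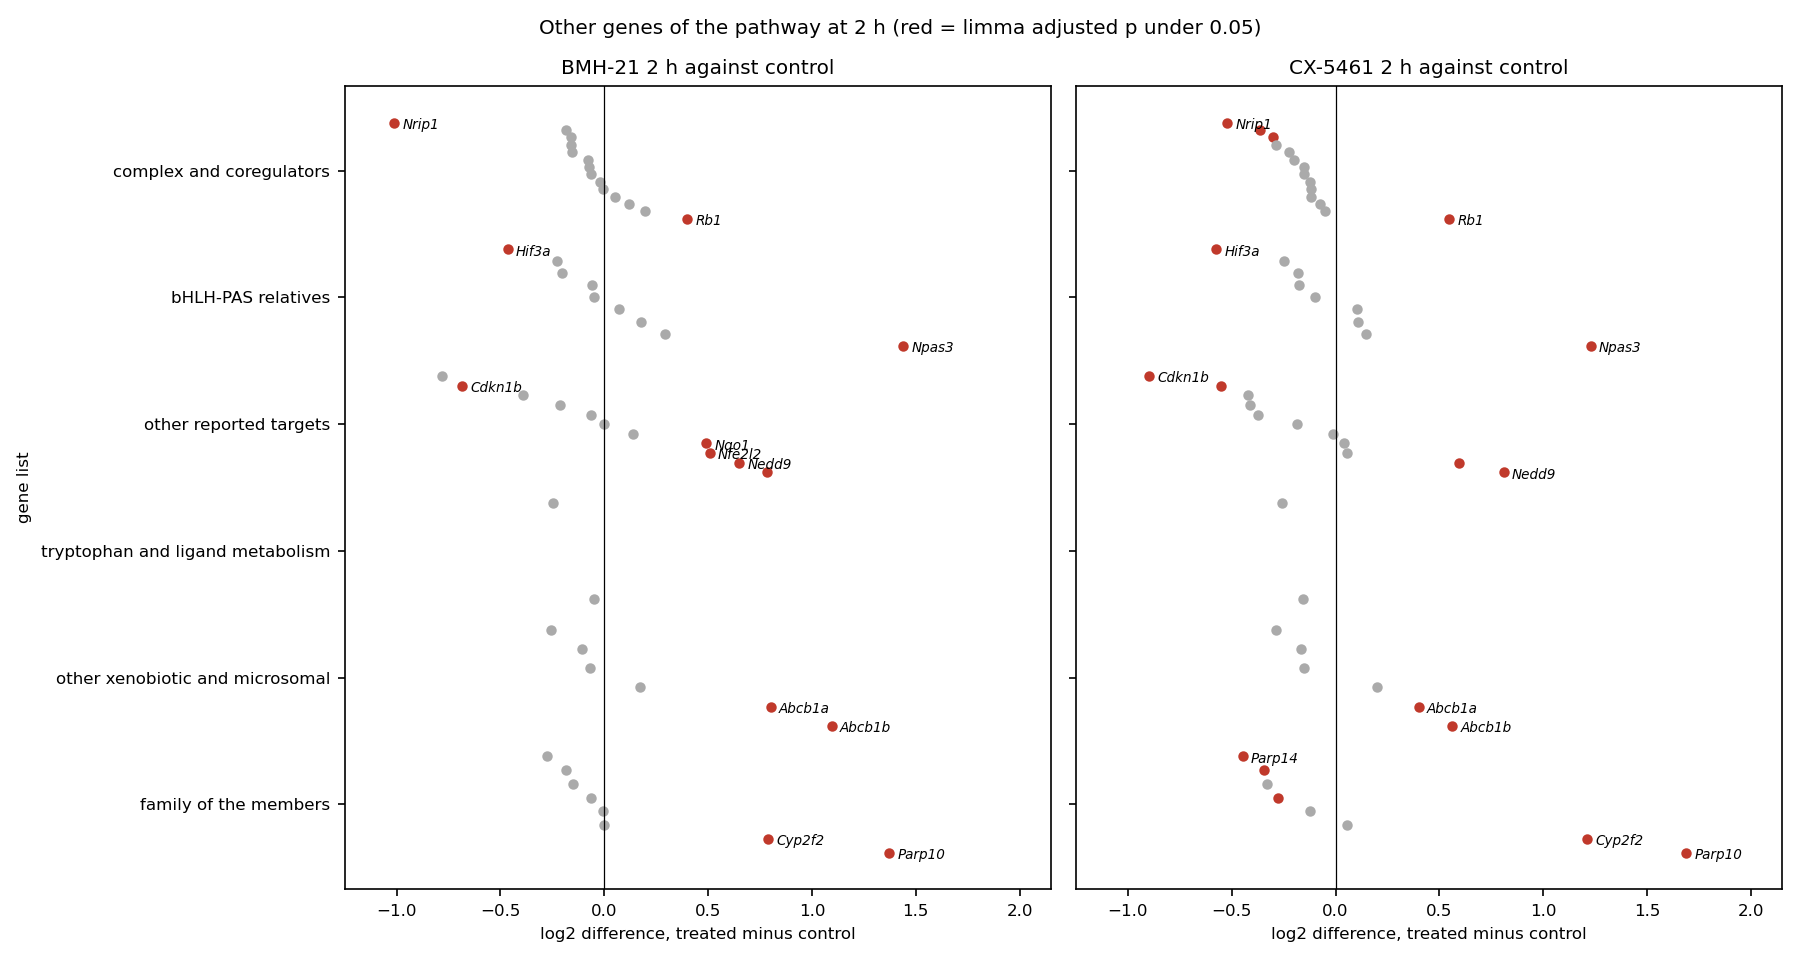
Log2 difference from control at 2 h (horizontal axis) of the 50 tested pathway genes, 1 point per gene, arranged by list on the vertical axis, for BMH-21 (left) and CX-5461 (right). Red points have a limma adjusted p under 0.05, 13 genes with BMH-21 and 17 with CX-5461, and those described in the text carry their names.

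In the direct comparison of the inhibitors at 2 h, 4 of the 50 pathway genes were higher with BMH-21 and 1 was lower, 10% against 3.99% of all genes tested. Nqo1 was higher by 0.51 (SE 0.11, limma adjusted p = 0.00084), Abcb1b by 0.53 (adjusted p = 0.0004), Nfe2l2 by 0.45 (adjusted p = 0.0044) and Abcb1a by 0.40 (adjusted p = 0.02). Nrip1 was lower, at -0.49 (SE 0.15, adjusted p = 0.044), a call kept in 4 of 10 other settings and lost with no filter, the stricter filter, the floor at log2 0, voom weights, the replicate block and only the groups compared (adjusted p from 0.05 to 0.17). Leaving out single libraries ended the call of Abcb1a without any of BMH-21 replicates 2 and 3 and CX-5461 replicates 2 and 3 (adjusted p up to 0.19), that of Nfe2l2 without replicate 2 of either inhibitor (0.083 and 0.06), and that of Nrip1 without BMH-21 replicates 1 or 3 or CX-5461 replicates 1 or 2 (up to 0.28). At 4 h 7 were higher and 3 lower, 20% against 17.8%, and at 8 h 11 and 26, 74% against 79.2%. The 8 h split was 24 and 14 after centring.

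Likeness to Cyp1a1 was measured as Pearson r over the 7 group means among 6600 genes whose means spanned at least 1 log2 unit. The means share their control and libraries, so r is descriptive. Cyp1b1 had r = 0.99 and Cyp1a2 r = 0.96, ranks 2 and 3 after Cyp1a1 itself, and Tiparp (0.90) and Ahrr (0.87) ranked 9 and 15. Aldh3a1 had 0.42, Ptgs2 0.39, Cyp2s1 -0.23 and Arnt -0.38; Ahr spanned too little to enter. The 8 other genes most like Cyp1a1 were Kcnj14 (0.93), 4930519F09Rik (0.92), Ccno (0.92), Dbhos (0.92), E030030I06Rik (0.90), Car3 (0.90), Cd209c (0.90) and Olfr1372-ps1 (0.89). Of these 8, 5 were again among the 8 after centring, 5 with median-ratio factors and 3 after quantile normalization.

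Ccno, a cyclin family gene of multiciliated cells, was highest at 2 h of BMH-21 and lower at each later time, as Cyp1a1 was. It was at 3.16 ± 0.23 in the control and at 5.14 ± 0.17, 4.19 ± 0.11 and 3.64 ± 0.10 in the successive BMH-21 groups (SD, n = 3). The CX-5461 groups were at 3.09 ± 0.01, 3.06 ± 0.16 and 3.19 ± 0.15. At 2 h it was higher with BMH-21 than with CX-5461 by 2.05 (SE 0.12, limma adjusted p = 9.8e-31), the highest positive difference outside the 10 genes among those that passed with no overlap. Cd209c, a lectin gene, was at 3.67 ± 0.15 in the control, 5.56 ± 0.18, 5.65 ± 0.21 and 4.37 ± 0.22 in the successive BMH-21 groups, against 4.04 ± 0.07, 3.85 ± 0.22 and 3.25 ± 0.05 with CX-5461. Kcnj14, a potassium channel gene, was at 0.62 ± 0.15 in the control and 1.93 ± 0.13, 1.97 ± 0.14 and 1.62 ± 0.07 with BMH-21. The CX-5461 groups were at 0.78 ± 0.13, 1.14 ± 0.07 and 1.20 ± 0.10, also above the control mean. The BMH-21 means of Cd209c and Kcnj14 were not lower at 4 h than at 2 h, unlike that of Cyp1a1.

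Per kilobase of exon, the order of the targets in control cells was Tiparp at 12.4, Aldh3a1 at 7.07, Cyp2s1 at 3.59, Cyp1a2 at 1.09, Cyp1a1 at 0.342, Ptgs2 at 0.261, Cyp1b1 at 0.138 and Ahrr at 0.0701 RPKM. After 2 h of BMH-21, Cyp1a1 was at 59.6, Tiparp at 30.2, Cyp1b1 at 7.08 and Ahrr at 0.774. Cyp1a1 thereby went from below most of its companions to above all of them, and Ahrr stayed the least abundant of these 4.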

How the data were processed

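Gene-level values of 21 poly(A) RNA-seq libraries (7 groups of 3) were read from 1 table of 20900 genes, with groups and replicate numbers taken from the sample titles. The deposited values are log2 expression that the authors normalized with voom, according to the name they gave the table. The submitters' processing notes name Trim Galore 0.5.0, TopHat2 2.1.1, R 4.0.5, DESeq2 1.30.1, edgeR 3.32.1, limma 3.46.0 and mm10; the counting program, annotation, strand setting and filters are not given in the sources used here. Whole reads were recovered from each value with the 0.5 offset of voom, to within 1.7e-08 of a whole number, and every replicate pair differed by more than sampling noise. The deposited library factors were 0.832 to 1.375 of the read total, and their origin is not stated.

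Genes above log2 0 in at least 3 of 21 libraries were tested (14666, with 6234 set aside). These log2 values were fitted with limma 3.58.1 in R 4.3.3, with 1 mean per group, eBayes with a trend and two-sided tests, adjusted by Benjamini-Hochberg at 0.05 within each of 9 comparisons. The code was tested on simulated data. No label says that replicates came from separate cultures, so p-values measure the spread between these samples, which may be technical. The spread used for each gene was drawn strongly towards a trend over all genes, with 111.5 prior degrees of freedom (8.531 after centring). Very small p-values therefore depend on that trend and on the scaling. Between the inhibitors at 2 h, limma adjusted p was 9.8e-31 for Ccno and 1.3e-06 for Myo7b as deposited, and 9.9e-13 and 0.002 after centring. Differences of log2 values hold the 0.5 read offset and understate those of genes with few reads.

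The 10 genes, the pathway lists and the marker lists were chosen with earlier results of these data known. Named genes were the 10, Nqo1, Arnt2 and Por, the greatest rise and fall per list and inhibitor at 2 and 8 h among calls without overlap, the 8 genes most like Cyp1a1, and the 5 highest and 3 lowest differences between inhibitors at 2 h. Other genes of the lists that are named with 2 h values, and Cd209c and Kcnj14 among the 8, were singled out after their values were seen. Some genes that the rule names are not reported here. Promoters are RefSeq entries on GRCm38.p6; gene positions and exon lengths are from GENCODE M21. Alternatives were other filters, a floor at log2 0, an offset of 5 reads, centring, median-ratio factors, quantile normalization, voom weights, fits of only the groups compared, a replicate block, and leaving out each library. Figures were drawn with matplotlib 3.10.9.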

Additional observations from a re-analysis of the deposited data

Results flagged for a closer look

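At 2 h limma's test of BMH-21 minus CX-5461 called 585 of the 14666 genes tested, of which the 13 chosen by the naming rule or the pathway lists are given here. In the pathway lists these were Abcb1b (0.53), Nqo1 (0.51), Nfe2l2 (0.45), Abcb1a (0.40) and Nrip1 (-0.49, a call lost in 6 of 10 other settings), all log2 differences. Outside the lists, Ccno was higher with BMH-21 by 2.05 and Pcdh8, a protocadherin gene, by 1.58, on 227 to 268 reads against 79 to 114. BB014433 differed by 1.62 on 28 to 36 reads against 7 to 19, and without CX-5461 replicate 3 its adjusted p was 0.12. Sag (1.83, 7 to 15 reads against 1 to 4) and Cfap221 (1.82, 3 to 5 reads against 1) rest on few reads, and Sag had an adjusted p of 0.1 without CX-5461 replicate 3. So do the genes lower with BMH-21: Myo7b (-2.32, 0 to 3 reads against 5 to 14), Prph2 (-1.81, 2 to 5 against 11 to 17) and Clrn3 (-1.77, 2 to 6 against 12 to 18).

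In another 4 cases every BMH-21 library lay on one side of the control and every CX-5461 library on the other; these differences were not tested. Tiparp was above control with BMH-21 and below it with CX-5461 at 2 h and 4 h, differing by 1.86 and 1.07. Ahrr did the same at 4 h, by 2.73. Cyp2s1 at 8 h was below control with BMH-21 and above it with CX-5461 as deposited, differing by -1.60. Its CX-5461 difference from control of 0.27 was 0.06 after centring and 0.16 with median-ratio factors, both with overlap. After quantile normalization it was 0.02. The difference between the inhibitors was then -1.17, -1.13 and -1.30 in the same order.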

How the results depend on the processing

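Among the 10 genes, 404 differences under other settings stayed within 1 SD of the deposited value, 133 moved further without a change of sign in a call, and 3 reversed, all under quantile normalization: Ahrr at 8 h with BMH-21 (-0.17) and CX-5461 (-0.66) and Cyp1a2 at 8 h with CX-5461 (-0.29). For the pathway genes, reversals were Arnt2 (0.20) at 8 h of BMH-21 with median-ratio factors, Nqo1 at 2 h of CX-5461 after centring (0.13), with median-ratio factors (0.17) and after quantile normalization (0.14), Npas3 at 8 h of CX-5461 after quantile normalization (-0.032), and Por at 8 h of CX-5461 after centring (-0.12). Scaling moved counts of calls most. After centring, with median-ratio factors and after quantile normalization, 5285, 5243 and 4634 genes passed for BMH-21 at 2 h against 2891 as deposited. Between the inhibitors the counts were 2261, 2208 and 1847 against 585 at 2 h, and 6719, 6116 and 6139 against 2617 at 4 h. Pathway genes went from 5 to 10, 10 and 10 at 2 h and from 10 to 25, 23 and 24 at 4 h. The cause was not tested. Leaving out single libraries gave 2370 to 5592 genes for CX-5461 at 2 h against 4096, falling to 2492 or fewer without control replicates 1 or 2 or CX-5461 replicates 2 or 3. Between the inhibitors it gave 361 to 653 at 2 h, with the low end without replicates 2 or 3 of either inhibitor, and 1687 to 2931 at 4 h, lowest without CX-5461 replicate 3. The pathway counts between the inhibitors ran from 2 to 5 at 2 h, lowest without CX-5461 replicate 2, and from 6 to 12 at 4 h, lowest without BMH-21 replicate 1 or CX-5461 replicate 3. Replicate numbers share only a number, with correlations of same-numbered deviations from -0.111 to 0.093; with the replicate block 2720 genes passed for BMH-21 at 2 h and 532 between the inhibitors at 2 h, and Nrip1 no longer passed there. Cyp1a1, Cyp1b1 and Ahrr had 28 to 57 reads in the control libraries, which limits the precision of their folds.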
